A study of Mus musculus with 6 samples.

Results

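The genes described here encode subunits and assembly factors of respiratory complex I, the NADH:ubiquinone oxidoreductase of mitochondria. They were chosen by symbol, as genes of the Ndufa, Ndufb, Ndufc, Ndufs, Ndufv and Ndufaf series with an expected count of 10 or more in at least 3 of 6 libraries, leaving out symbols that end in -ps. Of 55487 genes in the files 48 matched by symbol and 46 passed the count rule. Those left out were Ndufa11b, with 2.02 to 6.08 counts, and Ndufs6b, with 5.07 to 16.78 counts, whereas the member of the lowest counts, Ndufaf6, had 199 to 349. All 46 were among the 15727 genes that could be tested.

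The study addressed alcoholic cardiomyopathy with bulk RNA sequencing of the left ventricle of male C57BL/6 wild-type mice that were 8 weeks old. For 10 days the ET mice ate food containing 5% ethanol and the CONT mice a calorie-matched food, after which ET mice were gavaged once with ethanol and CONT mice once with maltose-dextrin. Tissue was collected 9 h after the gavage, so the diet and the gavage differ together between the groups. Each group has 3 libraries, and because nothing in the labels says that each library is a separate mouse, the p-values reflect the scatter among these libraries, possibly a technical one.

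Complex I is an L-shaped enzyme whose peripheral arm stands in the mitochondrial matrix and whose membrane arm lies in the inner membrane. The peripheral arm takes electrons from NADH in its NADH module and passes them along iron-sulfur clusters to ubiquinone in its ubiquinone module, and the membrane arm pumps protons. Core subunits carry out catalysis, the membrane arm core being encoded in mitochondrial DNA, while supernumerary subunits surround the core and assembly factors help to build the enzyme without staying in it. The heart depends on this enzyme for most of its NADH oxidation.

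Total expected counts lay between 28838386 and 37762233 per library, and mitochondrially encoded genes held 27.8% to 31.9% of them. Cardiomyocyte markers were abundant throughout, with a summed TPM of 50650 to 53400 in CONT and 38290 to 49030 in ET, ranges that did not overlap; 5 of 12 markers had a higher mean in ET. Atrial markers, which a ventricular sample holds at low level, were highest in ET replicate 1 (summed TPM 14730) and CONT replicate 3 (2182), against 100.1 to 490.7 in the other 4 libraries; 6 of 7 had a higher mean in ET. ET replicate 1 also had the highest sum of fibroblast markers (2273 against 665 to 948 elsewhere; 10 of 10 with a higher mean in ET) and of mesothelial markers (111 against 3.28 to 13.8; 8 of 8). For each of the remaining lists (adipocyte, endothelial, erythroid, hepatocyte, macrophage, neutrophil, skeletal muscle, smooth muscle and pericyte) the summed levels of the groups overlapped, though single libraries stood apart. ET replicate 1 did in macrophage (336 against 109 to 136), adipocyte (131 against 21.9 to 47.0) and smooth muscle and pericyte markers (573 against 184 to 330). ET replicate 3 did in neutrophil markers (94.2 against 1.75 to 17.5). Hepatocyte markers were highest in ET replicates 3 (59.0) and 1 (32.2), against 1.92 to 9.46 elsewhere. The mean was higher in ET for 7 of 7 adipocyte, 5 of 5 erythroid, 7 of 7 hepatocyte and 8 of 8 macrophage markers. The same held for 7 of 7 neutrophil, 8 of 8 smooth muscle and pericyte, 3 of 8 endothelial and 4 of 8 skeletal muscle markers. No marker of any list was at 0 in all libraries. The effective gene lengths in the files split the libraries into a set 1 (CONT replicates 1 and 2, ET replicate 1) and a set 2 (CONT replicate 3, ET replicates 2 and 3); the labels name no batch. The part of these differences in the results below was not tested.

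Complex I transcripts were at lower levels in ET than in CONT in nearly every member, by a modest amount, and no member passed the test. The log2 fold change of ET over CONT was below 0 in 45 of 46 members, where 48.1% of all tested genes were below 0. The median effective length was 590 bases in members and 2187 bases in all tested genes. Shorter genes were more often below 0, as the shares by length further below show. The median over members was -0.40 on the log2 scale, with a range from -0.66 (Ndufb2) to 0.09 (Ndufs1), and the median over all genes was 0.01. All members together took 1.13%, 1.198% and 1.003% of a library's counts in the CONT group (replicates 1, 2 and 3) against 0.912%, 0.950% and 0.889% in the ET group. The shares of the groups did not overlap, and CONT replicate 3 lay nearest to ET. In bulk tissue, fewer cells of a type and less RNA per cell cannot be told apart.

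With edgeR's quasi-likelihood test and Benjamini-Hochberg adjustment over 15727 genes, 0 members and 0 genes in all (0.0%) had an adjusted p under 0.05. The lowest adjusted p of a member was 0.478, for Ndufaf5. At an unadjusted p under 0.05, 13 members (28.3%) were lower in ET and 0 higher, beside 4.46% of all genes lower and 4.19% higher. DESeq2 called 184 genes (1.17%), none of them a member, and limma-voom called 0. All 3 ET libraries lay below all 3 CONT libraries in 27 members (58.7%), beside 8.36% of all genes, and above them in 0 members (6.89% of all genes). The count of 13 varied with each library: it was 2, 1 and 25 without CONT replicate 1, 2 or 3, and 6, 4 and 7 without ET replicate 1, 2 or 3.

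The libraries of a group differed from each other in these genes. The median member lay 0.26 and 0.37 above its mean over 6 libraries (log2 CPM) in CONT replicates 1 and 2 but at -0.02 in CONT replicate 3. In ET it lay at -0.37 in replicate 1 and at -0.10 and -0.11 in replicates 2 and 3. The pooled SD within groups was 0.18. CONT replicate 3 and ET replicate 1 are also the libraries with the most atrial marker RNA. Without both of them 6 members passed the adjusted threshold (Ndufb2, Ndufc1, Ndufb7, Ndufv3, Ndufa11 and Ndufs5, with adjusted p from 0.0242 to 0.0499 by edgeR), beside 5.27% of all genes, and the median over members was -0.42; the group and the library set then cannot be told apart.

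**Figure D1:**
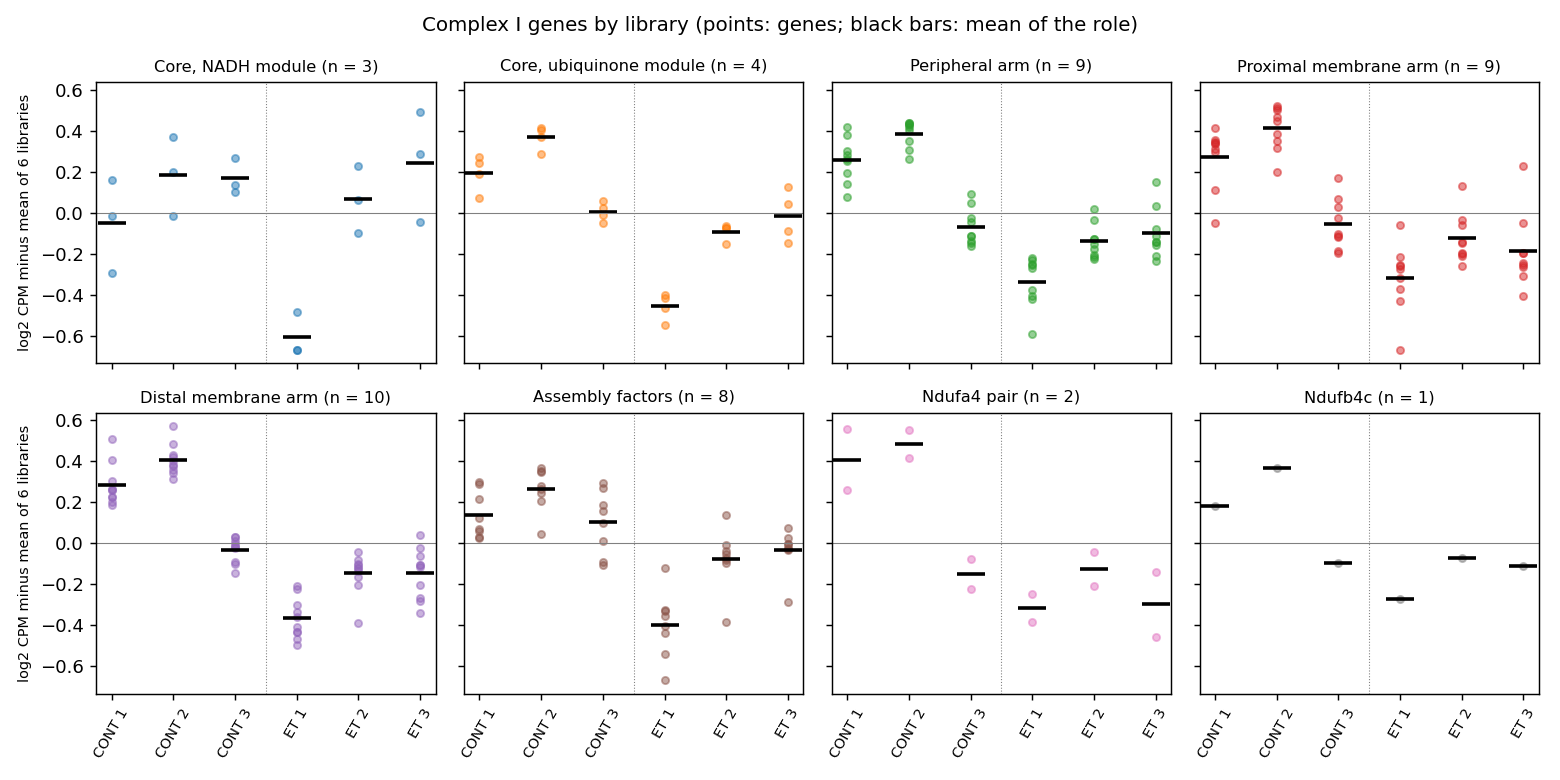
Log2 CPM of each of the 46 members minus its own mean over the 6 libraries, in 1 panel per role; points are genes and black bars are the mean of a role. CONT replicates 1 and 2 are highest and ET replicate 1 is lowest in most panels, and CONT replicate 3 lies close to 0.

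The core of the NADH module comprises 3 members, 2 with fold changes below 0 (48.1% of all genes were), and had a median log2 fold change of -0.16. Values below are CPM (counts scaled to library size with TMM factors), given for replicates 1, 2 and 3 in order. Separation and overlap of groups below also refer to CPM unless another scale is named. Ndufv2, which carries an iron-sulfur cluster at the entry of electrons, had 362, 418 and 347 CPM in CONT and 231, 302 and 313 in ET. Every ET library was below every CONT library, and the log2 fold change was -0.41 ± 0.19 (SE, n = 3 per group; edgeR adjusted p = 0.578). Ndufv1, the subunit that binds flavin and NADH, had 483, 561 and 537 CPM in CONT and 308, 511 and 596 in ET. Its ET values spread from the lowest to the highest of all 6 libraries, with a log2 fold change of -0.16 ± 0.27. Ndufs1, the largest core subunit and a carrier of several iron-sulfur clusters, had 280.3, 339.6 and 413 CPM in CONT and 216, 403 and 482 in ET. It was the only member whose fold change was above 0 (0.09 ± 0.32; edgeR adjusted p = 0.938), its groups overlapped, and its sign turned to -0.21 with a term for the library set, -0.03 without CONT replicate 1 and -0.16 without ET replicate 3.

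In the core of the ubiquinone module all 4 members had fold changes below 0, with a median of -0.40. Ndufs7, which carries the last iron-sulfur cluster before ubiquinone, had 333, 374 and 279 CPM in CONT and 213, 253 and 265 in ET. Its groups did not overlap, and the fold change was -0.43 ± 0.19 (adjusted p = 0.573, edgeR). Ndufs8, another iron-sulfur subunit, had 204, 224 and 164 CPM in CONT and 127, 162 and 153 in ET. These did not overlap either, though CONT replicate 3 and ET replicate 2 were nearly equal; the fold change was -0.42 ± 0.19. Ndufs3, a structural core subunit of this module, had a fold change of -0.37 ± 0.21 with overlapping groups. Over both modules, 6 of 7 core subunits were below 0 (48.1% of all genes were) and none reached an unadjusted p of 0.05. Their median effective length was 977 bases, against 521 in the supernumerary subunits. Within library set 1 the medians of core and supernumerary subunits were -0.75 and -0.70, and within set 2 -0.04 and -0.08. With offsets for gene length, described further below, they were -0.23 and -0.18. Of the 7, 3 did not overlap (42.9%, beside 8.36% of all genes).

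All 28 supernumerary subunits had fold changes below 0 (48.1% of all genes were), with a median of -0.42. Their median effective length was 521 bases. Among genes with a mean log2 CPM over 3, 84.7% of those under 500 bases were below 0. The share was 78.1% for 500 to 1000 bases. Of the 28, 11 reached an unadjusted p under 0.05 in edgeR (4.46% of all genes were lower at that p). Between groups 20 did not overlap (8.36% of all genes). Among the 9 of the peripheral arm the median was -0.41. Ndufs4, whose loss causes Leigh-like disease in mice, had 154, 173 and 134 CPM in CONT and 96.5, 116 and 117 in ET. The groups were separate and the fold change was -0.48 ± 0.17 (edgeR adjusted p = 0.529). Ndufv3, a small subunit of the NADH module, had 312, 316 and 210.0 CPM in CONT and 196, 199 and 198 in ET. The SD was 1.72 CPM in ET and 59.9 CPM in CONT, where replicate 3 was close to the ET level; the fold change was -0.50 ± 0.20. Ndufa5, at the highest TPM of these 9, had 392, 435 and 298 CPM in CONT and 270.0, 295 and 279 in ET, again separate only by the small gap to CONT replicate 3. Its fold change was -0.41 ± 0.20. Ndufa9, which sits at the junction of the arms and has the lowest TPM of these 9, had 319, 363 and 322 CPM in CONT and 201, 306 and 336 in ET. ET replicate 3 exceeded CONT replicates 1 and 3, and the fold change was -0.25 ± 0.23. Fold changes of the others were -0.45 for Ndufs6, a zinc-binding subunit, -0.41 for Ndufa6, which binds the mitochondrial acyl carrier protein, -0.37 for Ndufa7, -0.36 for Ndufa2 and -0.28 for Ndufa12; of these, Ndufa6 and Ndufa12 did not overlap between groups.

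The 9 supernumerary subunits of the proximal membrane arm, the part of the membrane arm next to the peripheral arm, had a median of -0.47. Ndufa11, a membrane subunit at the contact with complex III in supercomplexes, had 245, 274 and 197 CPM in CONT and 162, 167 and 146 in ET. Its groups were separate, and the fold change was -0.59 ± 0.18 (edgeR adjusted p = 0.515). Ndufs5, a subunit on the side of the intermembrane space, had 206, 233 and 151 CPM in CONT and 130.5, 142 and 137 in ET. These were separate too, with a fold change of -0.53 ± 0.20. Ndufa3, at the highest TPM of the 9, had 258, 275 and 194 CPM in CONT and 162, 191 and 203 in ET. Here CONT replicate 3 lay within the ET range, and the fold change was -0.39 ± 0.20. Ndufc2, at the lowest TPM of the 9, had 119, 137 and 116 CPM in CONT and 92.3, 108 and 96.3 in ET; these did not overlap and the fold change was -0.33 ± 0.15. The other members were Ndufc1 (-0.52) and Ndufa8 (-0.51), both with an unadjusted p under 0.05, Ndufa13 (-0.47), also known as a cell death regulator, Ndufa1 (-0.36) and Ndufa10 (-0.16). Of these, Ndufc1, Ndufa8 and Ndufa13 were separate between groups in CPM. Among all 9, 6 were separate in CPM (8.36% of all genes) but only 1, Ndufa11, in TPM (background 3.22%). Ndufc1 was nearly equal in CONT replicate 3 (117.4 CPM) and ET replicate 2 (117.2 CPM). Ndufa10 overlapped, with 407 ± 36.9 CPM in CONT and 364 ± 111 in ET (SD, n = 3 each).

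In the distal membrane arm, the far end of the proton-pumping domain, 9 of 10 members did not overlap between groups in CPM (8.36% of all genes), and the median was -0.42. On the TPM scale 6 of the 10 were separate (background 3.22%), and with offsets for gene length 6 of 10 were (background 7.45%). Ndufb2 had the lowest fold change of all members, with 163, 169.8 and 103 CPM in CONT and 98.7, 87.2 and 90.1 in ET. CONT replicate 3 lay much nearer to ET than to the other CONT libraries, and the fold change was -0.66 ± 0.22 (edgeR adjusted p = 0.515). Ndufb7, a subunit on the side of the intermembrane space, had 344, 362 and 241 CPM in CONT and 211, 225 and 213 in ET, with a fold change of -0.55 ± 0.20 and the same placing of CONT replicate 3. Ndufb9, which binds the acyl carrier protein and has the highest TPM of these 10, had 640.0, 694 and 546 CPM in CONT and 427, 499 and 525 in ET. Its groups were separate and the fold change was -0.37 ± 0.19. Ndufb10 and Ndufb8 had 528 ± 70.5 and 501 ± 68.6 CPM in CONT and 379 ± 45.7 and 359 ± 52.2 in ET, each with a fold change of -0.48. Ndufb3 and Ndufb11 stood at -0.42, Ndufb6 at -0.39 and Ndufb5 at -0.37, all 4 without overlap.

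Ndufb4 and its copy Ndufb4c cannot be measured apart with certainty. Ndufb4 (chromosome 16, 37647170 to 37654453, minus strand, GRCm38) has exons and introns, whereas Ndufb4c (chromosome 15, 73809507 to 73809896) is annotated as a processed pseudogene, identical to the Ndufb4 transcript over 390 of 390 bases. Ndufb4 had 35.4, 38.3 and 30.4 CPM in CONT and 22.8, 28.6 and 31.7 in ET, with a fold change of -0.32 ± 0.17. Ndufb4c had 168, 191 and 139 CPM in CONT and 123, 141 and 137 in ET, with a fold change of -0.31 ± 0.18, so that 81.3% to 84.4% of the pair's CPM was assigned to the pseudogene. Summed, the pair had 203.5, 229.5 and 169.3 CPM in CONT and 145.5, 169.7 and 169.1 in ET, and CONT replicate 3 lay within the ET range. How much of this sum each locus makes cannot be read from the files. Near-identical copies were found for 10 members in all, and without them the median over the other 36 was -0.40. Apart from the Ndufb4 pair, the copy with the most counts was Gm15920, at 7.84% of the counts of Ndufa12. The use of strand in counting is not given in the sources used here. Exons of an opposite-strand gene cover 65.65% of the exon bases of Ndufaf2, 39.0% of Ndufb6 and 29.98% of Ndufa13. Whether reads from these pairs were kept apart is therefore not known.

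**Figure D2:**
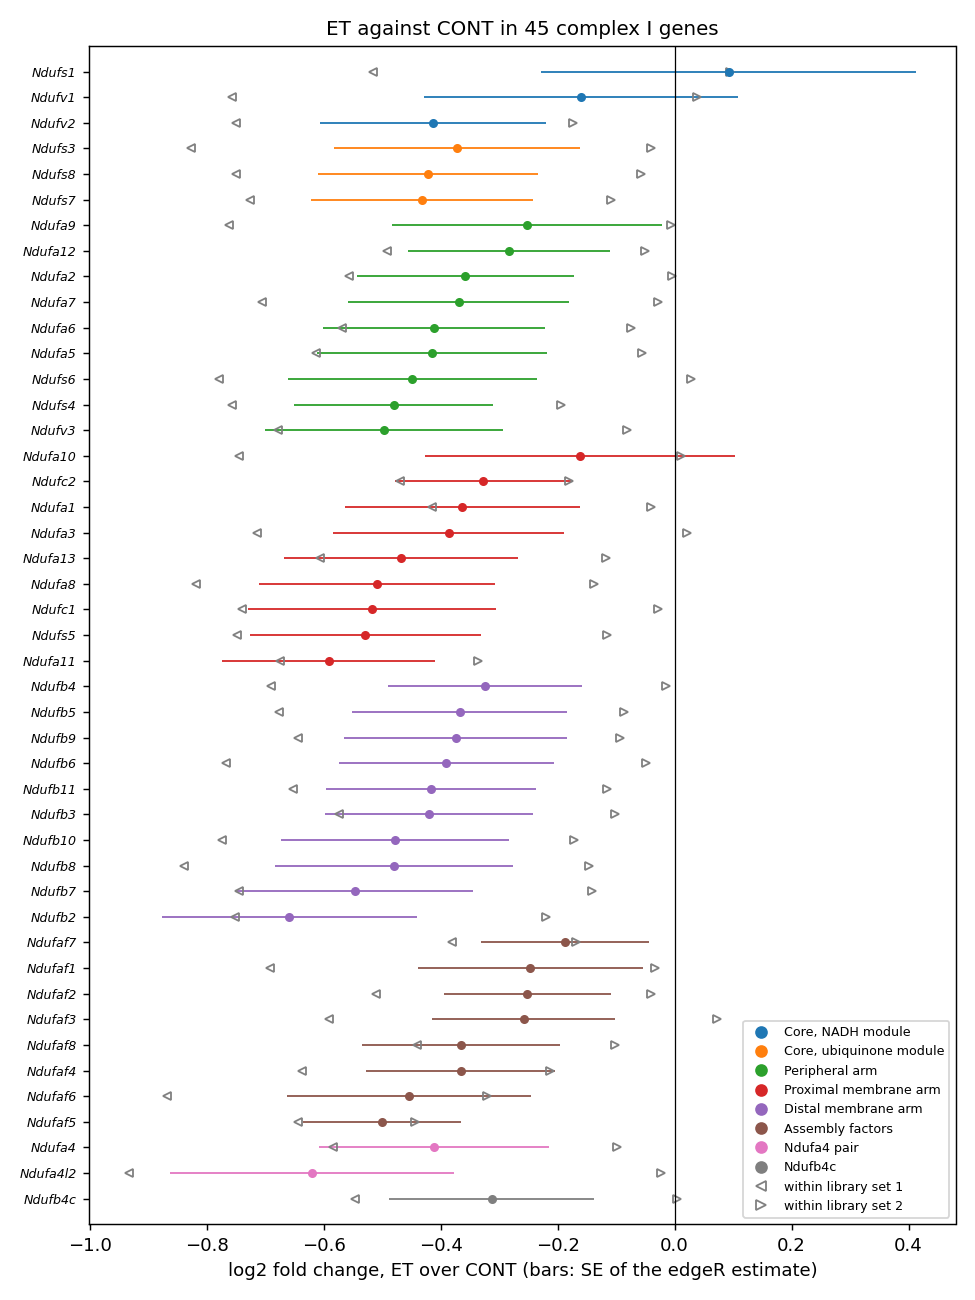
Log2 fold change of ET over CONT (x axis) for 45 of the 46 members (y axis), coloured by role, with SE bars; open triangles give the difference within library set 1 (pointing left) and set 2 (pointing right). Filled points of all plotted members but Ndufs1 lie left of 0, the set 1 triangles have a median of -0.68 and the set 2 triangles a median of -0.08, with Ndufaf5 (-0.44), Ndufa11 (-0.34) and Ndufaf6 (-0.32) lowest in set 2.

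The 8 assembly factors were expressed below all structural subunits but Ndufb4 and leaned the same way. Their mean TPM, a unit that is scaled by transcript length and so can be compared between genes, ran from 10.4 (Ndufaf6) to 40.1 (Ndufaf8), while the 35 structural subunits ran from 35.4 (Ndufb4) to 897 (Ndufb9). The level of Ndufb4 leaves out what was assigned to Ndufb4c, and summed the pair had 452 to 572 TPM. All 8 assembly factors had fold changes below 0 (48.1% of all genes were), with a median of -0.31. Of the 8, 3 did not overlap (37.5%, beside 8.36% of all genes). Ndufaf5, which hydroxylates an arginine of Ndufs7 during early assembly, had 13.8, 13.0 and 13.6 CPM in CONT and 8.56, 10.8 and 9.28 in ET. It is the member with the lowest p: CONT libraries were close together, ET libraries were all lower, and the fold change was -0.50 ± 0.14 (unadjusted p = 0.00753, adjusted p = 0.478 by edgeR). Its difference was -0.64 within library set 1 and -0.44 within set 2. Ndufaf8, the partner of Ndufaf5, had 19.3, 19.997 and 14.6 CPM in CONT and 14.5, 12.1 and 15.3 in ET, with overlap and a fold change of -0.36 ± 0.17. Ndufaf4, which acts with Ndufaf3 on the ubiquinone module, had 34.8, 44.0 and 37.9 CPM in CONT and 25.1, 31.9 and 33.5 in ET. Its groups were separate (-0.37 ± 0.16), whereas those of Ndufaf3 overlapped (-0.26 ± 0.16). Ndufaf6, another early factor, had 8.81, 10.7 and 10.3 CPM in CONT and 5.31, 8.11 and 8.40 in ET, separate by a small gap (-0.45 ± 0.21). Ndufaf1, which works on the membrane arm with Ecsit and Acad9, Ndufaf2, a paralog of Ndufa12, and Ndufaf7, an arginine methyltransferase, had fold changes of -0.25, -0.25 and -0.19, all with overlap.

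Ndufa4 and Ndufa4l2 carry complex I names, but Ndufa4 is now known as a subunit of complex IV, and Ndufa4l2 is its hypoxia-inducible paralog. Ndufa4 had the highest mean TPM of all members (1128), and Ndufa4l2 stood at 16.4. CPM of Ndufa4 was 716, 797 and 568 in CONT and 504, 517 and 543 in ET, without overlap (-0.41 ± 0.20; edgeR adjusted p = 0.580). Ndufa4l2 had 14.6, 14.6 and 8.52 CPM in CONT and 7.63, 9.67 and 7.26 in ET, where CONT replicate 3 lay among the ET libraries (-0.62 ± 0.24; edgeR adjusted p = 0.560). Without this pair the median over members was -0.39.

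**Figure D3:**
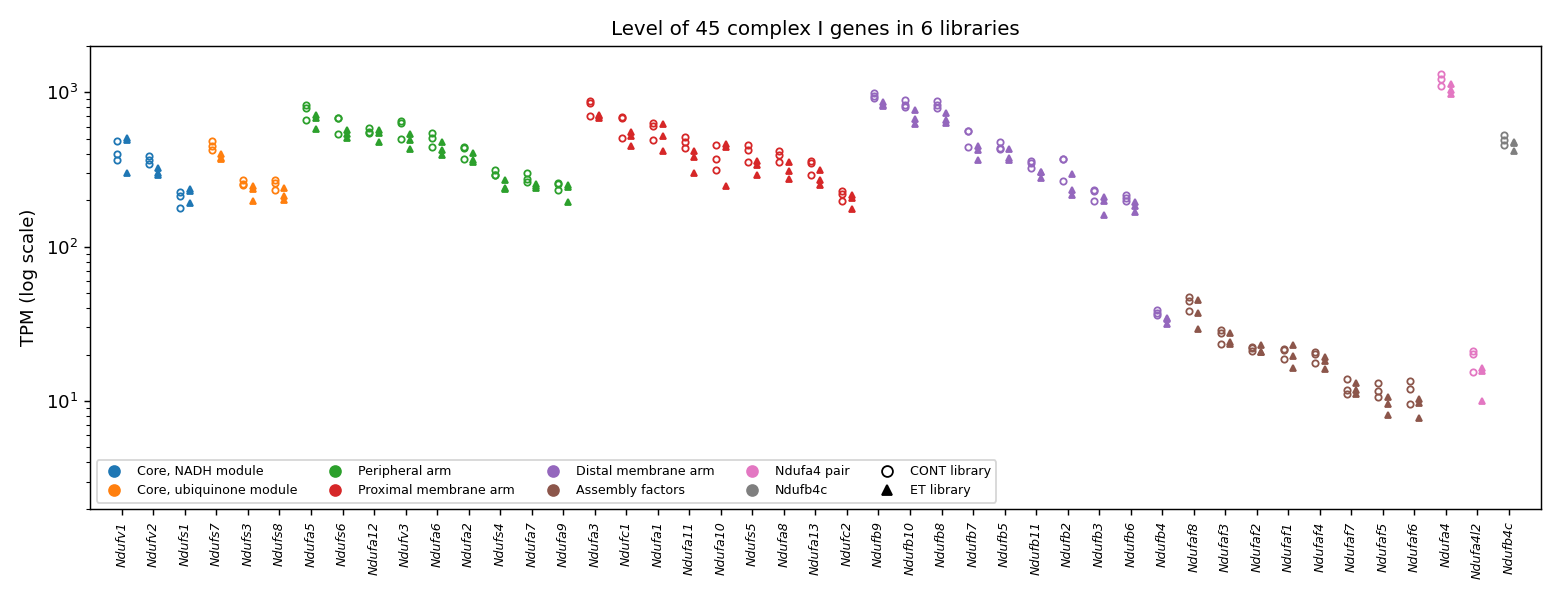
TPM of 45 of the 46 members in each library on a log scale, ordered within roles by mean TPM; open circles are CONT libraries and filled triangles are ET libraries. Structural subunits reach 897 (Ndufb9), while assembly factors, Ndufa4l2 and Ndufb4 form a separate group at or below a mean of 40.1. The level of Ndufb4 leaves out what was assigned to its identical copy Ndufb4c. Summed, the pair had 452 to 572 TPM.

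On the TPM scale fewer members, and fewer of all genes, had ET wholly below CONT. Of the 15727 tested genes 514 did in TPM and 1314 in CPM. ET lay wholly above CONT in 1937 of them in TPM and in 1084 in CPM. The summed TPM of the members was 17693, 18668 and 16298 in CONT and 15341, 15893 and 14312 in ET, without overlap. Single members were separate in 13 of 46 cases, beside 3.22% of the genes whose mean TPM was 0.5 or more. In CPM 27 were, beside 8.36% of all genes. The 13 were Ndufaf5, Ndufv2, Ndufs7, Ndufs3, Ndufs4, Ndufa7, Ndufa11, Ndufb4, Ndufb6, Ndufb8, Ndufb9, Ndufb10 and Ndufb11. Of these, Ndufs3, Ndufa7 and Ndufb4 overlapped in CPM. All other members called separate above overlapped in TPM. With limma-trend on log2(TPM + 1) the median over members was -0.21, while that over all genes moved to 0.15, so members lay 0.36 below all genes against 0.42 below on the count scale. Ndufv1 turned to 0.03 on that scale. Scaled to cardiomyocyte markers in the same library, 45 members were below 0 with a median of -0.22, and all genes moved to 0.17.

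The 2 library sets did not show the same difference. Within set 1, where ET is 1 library, all 46 members were below 0 (background 50.9%) with a median of -0.68. Within set 2, where CONT is 1 library, 39 were below 0 (background 51.0%) with a median of -0.08. Cardiomyocyte markers had a median of -0.66 within set 1 (10 of 12 below 0) and -0.16 within set 2 (9 of 12). Each set has 1 library on a side, so the difference between sets was not tested. Ndufaf5 (-0.44), Ndufa11 (-0.34) and Ndufaf6 (-0.32) had the lowest values in set 2, and Ndufaf3 (0.07) and Ndufs1 (0.09) were among those above 0 there.

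The members differed between library sets by length. Library set 2 minus set 1 (log2 CPM) was lowest in Ndufb2 (-0.58, effective length 402 bases) and highest in Ndufs1 (0.66, 1640.4 bases). Across the 46 members this difference followed the effective length with a Spearman rho of 0.715 (Pearson r = 0.706). Across 8346 genes with a mean log2 CPM over 3, rho was 0.206. Genes share libraries and are not independent, so this is a description. Set 2 holds more ET libraries and set 1 more CONT libraries, so this difference includes part of the group difference. Within CONT (replicate 3 minus replicates 1 and 2) rho was 0.7 in members and 0.292 in the 8346 genes. Within ET (replicates 2 and 3 minus replicate 1) it was 0.671 in members and 0.005 in the 8346 genes. The median of set 2 minus set 1 was -0.30 in the 15 members under 500 bases and 0.16 in the 7 of 1000 to 1500 bases. For all genes of these lengths with a mean log2 CPM over 3 the medians were -0.26 and 0.03. Within CONT alone the medians for these lengths were -0.46 and 0.02 in members and -0.33 and -0.04 in those genes. Within ET alone they were 0.09 and 0.61 in members and -0.04 and 0.17 in those genes. The fold change of ET over CONT followed length with a rho of 0.376 in members and 0.352 in all genes. Among genes with a mean log2 CPM over 3, a fold change below 0 was found in 84.7% of those under 500 bases. The share was 78.1% for 500 to 1000 bases and 35.8% over 1500 bases. All 15 members under 500 bases and all 21 members of 500 to 1000 bases were below 0.

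With offsets that remove each library's trend on length, an adjustment chosen after seeing the data, the median over members was -0.18 and 44 of 46 were below 0 (background 47.2%). Of the members 15 did not overlap (background 7.45%), 4 had an unadjusted p under 0.05 and were lower (background 4.20%), and 0 passed the adjusted threshold in edgeR. Ndufaf4 (-0.37), Ndufaf5 (-0.39), Ndufb2 (-0.36) and Ndufa11 (-0.33) were those 4. Several short members moved close to 0: Ndufa3 went from -0.39 to -0.06, Ndufa1 from -0.36 to -0.05 and Ndufb4c from -0.31 to 0.001, while Ndufaf4, with an effective length of 1840.5 bases, was -0.37 without and -0.37 with offsets.

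**Figure D4:**
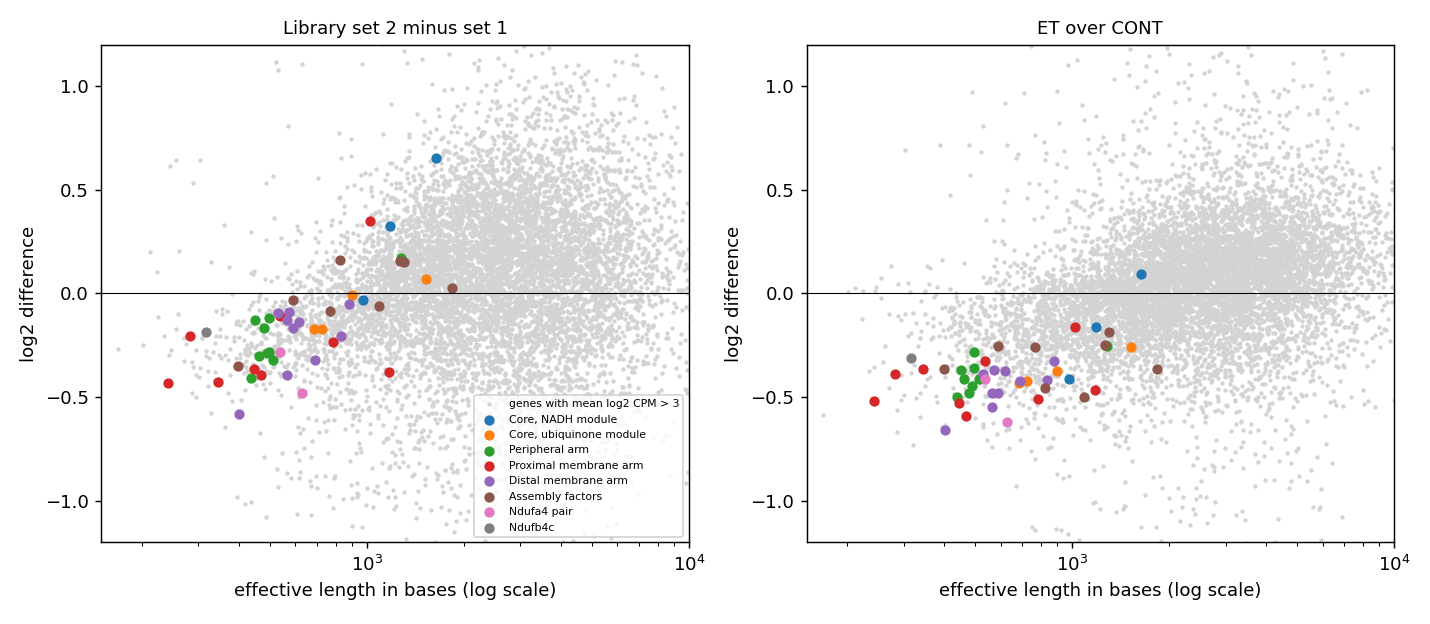
Log2 difference of library set 2 minus set 1 (left) and of ET over CONT (right) against effective length in bases on a log scale; coloured points are the 46 members by role and grey points all genes with a mean log2 CPM over 3. On the left, members run from below 0 at short lengths to above 0 at long lengths, as for Ndufb2 (-0.58) and Ndufs1 (0.66).

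Promoters are shown for the members with the lowest p and for the most abundant members whose window held a searched motif, since the 46 members are spread over 17 chromosomes and leaned the same way. RefSeq windows of 300 bases (250 before and 50 after the annotated start, GRCm38.p6) were found for 39 of 46 members; those not matched included Ndufa2, Ndufa4l2, Ndufaf6, Ndufb4c, Ndufb9 and Ndufs1. Each is written 5′ to 3′ on the strand of the gene. Capitals mark matches, on either strand, to GCGCANGCG for nuclear respiratory factor 1, AANATGG for YY1 and GGGCGG for the GC box; the first of these can match both strands of the same bases, and such matches overlap. The windows are those of Ndufaf5 (chr2:140170396-140170695, plus strand), Ndufa11 (chr17:56717512-56717811, plus), Ndufb10 (chr17:24724374-24724673, minus) and Ndufb8 (chr19:44555393-44555692, minus).
Ndufaf5: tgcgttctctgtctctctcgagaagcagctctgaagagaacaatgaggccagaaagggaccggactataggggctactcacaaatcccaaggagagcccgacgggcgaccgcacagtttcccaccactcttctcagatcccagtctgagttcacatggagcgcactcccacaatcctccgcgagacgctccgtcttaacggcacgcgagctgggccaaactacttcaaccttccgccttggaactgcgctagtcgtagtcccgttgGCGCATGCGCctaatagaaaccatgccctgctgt
Ndufa11: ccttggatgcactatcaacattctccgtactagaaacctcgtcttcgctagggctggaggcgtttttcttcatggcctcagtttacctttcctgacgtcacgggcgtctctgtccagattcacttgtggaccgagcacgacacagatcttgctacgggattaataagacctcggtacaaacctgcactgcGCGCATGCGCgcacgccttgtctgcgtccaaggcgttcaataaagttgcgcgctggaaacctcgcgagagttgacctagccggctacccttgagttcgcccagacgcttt
Ndufb10: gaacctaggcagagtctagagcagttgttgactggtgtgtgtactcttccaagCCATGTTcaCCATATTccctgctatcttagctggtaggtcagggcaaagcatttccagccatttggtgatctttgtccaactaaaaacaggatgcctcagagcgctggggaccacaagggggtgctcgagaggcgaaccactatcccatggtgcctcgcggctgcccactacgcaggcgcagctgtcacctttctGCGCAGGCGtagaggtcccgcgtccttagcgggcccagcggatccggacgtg
Ndufb8: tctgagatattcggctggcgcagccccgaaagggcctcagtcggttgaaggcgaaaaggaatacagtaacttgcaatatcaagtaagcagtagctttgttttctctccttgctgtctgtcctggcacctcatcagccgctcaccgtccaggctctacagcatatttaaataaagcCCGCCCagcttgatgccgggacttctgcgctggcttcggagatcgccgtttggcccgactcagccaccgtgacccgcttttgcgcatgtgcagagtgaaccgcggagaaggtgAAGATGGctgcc

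Ndufaf5, Ndufa11 and Ndufb10 each hold the GCGCANGCG letters, which lie after the annotated start in Ndufaf5, before it in Ndufa11 and across it in Ndufb10. Ndufb10 also has 2 YY1 matches further upstream. Ndufb8 holds no such match but has a YY1 match after the start and a GC box match before it. Over the 41 windows of the 39 members, GCGCANGCG occurred in 26.8%, against 6.25% of all 32851 windows. The members that held it were Ndufa11, Ndufa5, Ndufa6, Ndufa8, Ndufaf4, Ndufaf5, Ndufb10, Ndufb4, Ndufs5 and Ndufs6. AANATGG occurred in 34.1% of member windows against 16.1%, the GC box in 51.2% against 35.7%, CCGGAAG, a site of ETS factors such as GABP, in 14.6% against 8.86%, and AAGGTCA, the half-site of estrogen-related receptors, in 7.32% against 4.72%. CCAAT (34.1% against 37.4%) and TATAAA (12.2% against 13.6%) did not occur more often in member windows. Member windows were richer in G and C (median 59.3%) than all windows (52.7%), and the part of this in the shares was not tested. A match is a description of the letters and not a measured binding site.

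The other subunits of the respiratory chain were given the same reading. The 7 complex I genes of mitochondrial DNA, which encode the membrane arm core, had a median fold change of -0.18, with 6 of 7 below 0 and none without overlap. mt-Nd4 (-0.26 ± 0.23), mt-Nd2 (-0.22 ± 0.22), mt-Nd1 (-0.22 ± 0.21), mt-Nd6 (-0.18 ± 0.24), mt-Nd4l (-0.12 ± 0.23) and mt-Nd5 (-0.07 ± 0.24) were below 0 and mt-Nd3 (0.13 ± 0.25) above it. Their levels in ET replicate 3 lay within or above the CONT range for all 7, as for mt-Nd5, with 19050, 19060 and 19200 CPM in CONT and 14620, 16170 and 23820 in ET. Nuclear genes of complexes II to V numbered 44 tested; 43 were below 0 (48.1% of all genes were), 29 had ET wholly below CONT (8.36% of all genes), and the median was -0.38. By complex the median was -0.20 for II, -0.43 for III, -0.38 for IV and -0.39 for V. In the same order the median effective lengths were 1112, 474, 476 and 579 bases. Within library set 1 the medians were -0.80, -0.72, -0.69 and -0.67, and within set 2 -0.006, -0.11, -0.08 and -0.07. With length offsets they were -0.09, -0.17, -0.12 and -0.15. The part of length and library set in the difference between complexes was not tested. Cox7a1, the heart and muscle form of a complex IV subunit, had -0.73 ± 0.24, and Uqcr11 of complex III -0.49 ± 0.21. Relative to complexes II to V in the same library, 29 of 46 members were below 0 and the median was -0.03.

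Other genes around complex I had list medians closer to 0. These lists, in the order below, had median effective lengths of 1463, 961 and 3241 bases, against 590 in members. Within library set 1 their medians were -0.49, -0.52 and -0.36, against -0.68 in members. Within set 2 they were 0.005, 0.006 and 0.04, against -0.08 in members. The part of length and library set in this difference was not tested. Of 14 other complex I genes 11 were below 0 (median -0.11; 48.1% of all genes were below 0). 2 did not overlap, a share of 14.3% beside 8.36% of all genes: Dmac2, an assembly factor of the distal membrane arm (-0.45 ± 0.13; unadjusted p = 0.00863, edgeR adjusted p = 0.5004), and Ndufab1, the mitochondrial acyl carrier protein (-0.43 ± 0.20). Of 14 genes of iron-sulfur cluster assembly 9 were below 0 (median -0.18), led by Bola3 (-0.36 ± 0.16) and Glrx5 (-0.30 ± 0.15). Of 14 transcription regulators of respiratory genes 7 were below 0 (median 0.01); those of lowest p were Gabpb1 (-0.26 ± 0.15) and Pprc1 (-0.30 ± 0.23). No gene of these lists passed the adjusted threshold in edgeR.

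**Figure D5:**
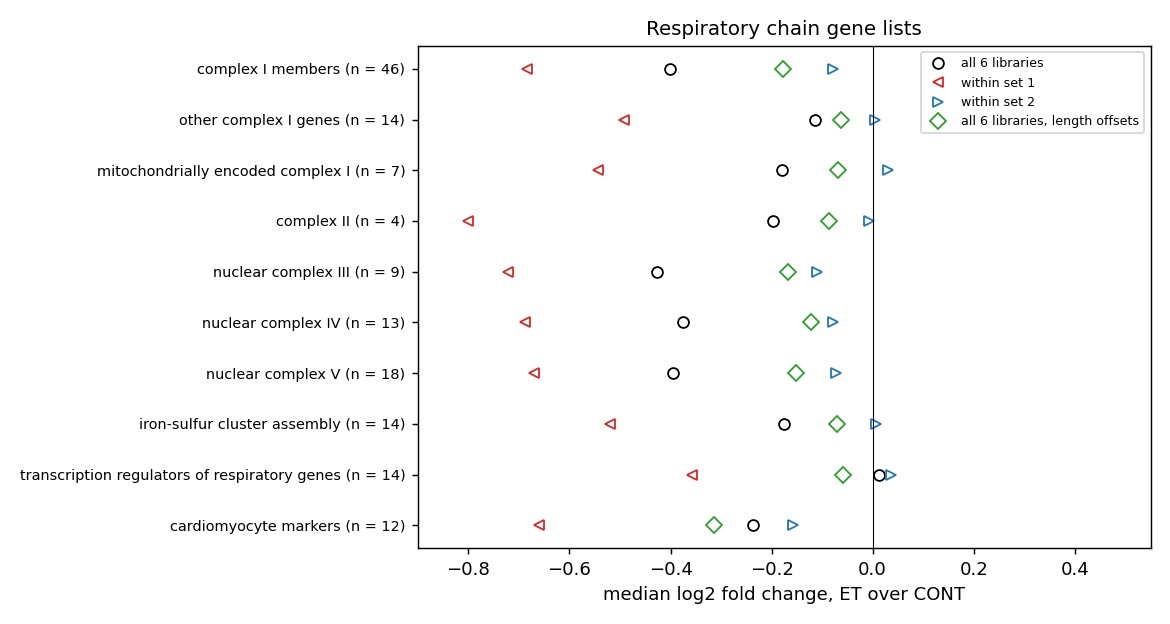
Median log2 fold change of ET over CONT for the complex I members and related lists (y axis, number of tested genes in brackets), over all 6 libraries, within each library set, and with length offsets. Complex I members (-0.40) lie beside complexes III (-0.43), IV (-0.38) and V (-0.39), each with set 1 far below set 2.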

How the data were processed

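RNA from the left ventricle was sequenced in 6 libraries, 3 per group. The submitters' processing notes name STAR 2.7.0f, RSEM 1.2.31 and the mm10 build; which annotation release and strand setting applied is not given in the sources used here. Expected counts per gene, deposited by the authors in 1 table, are not normalized. Files per library hold the authors' TPM and FPKM values, per the file headers. No other column of samples was present.

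Expected counts were rounded and tested with edgeR 4.0.16 (R 4.3.3): filterByExpr (minimum count 10, total 15), TMM factors, robust quasi-likelihood test, two-sided, Benjamini-Hochberg over 15727 genes, threshold 0.05, no covariate. TMM factors were 0.969, 0.927 and 1.004 in CONT and 1.19, 1.01 and 0.920 in ET. The biological coefficient of variation was 0.297. DESeq2 1.42.0, limma 3.58.1 (voom, and trend on TPM with pseudocounts 1 and 0.1) and other scalings, filters and left-out libraries served as alternatives. The count tests were tried on simulated counts.

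Effective length was the expected count divided by FPKM and the library total, scaled to bases. Libraries were put into 2 sets by clustering these lengths over 9657 genes (difference between libraries, root mean square log2, 0.110 to 0.132 within and 0.129 to 0.177 between sets, which overlap). Length offsets came from a loess of span 0.5. Copies were transcripts of at least 95% identity over 75 bases (BLAST 2.17.0, GENCODE vM21, GRCm38); the further minimum of 30% of the transcript was set after seeing the first search. Motifs were searched on both strands.

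Members, roles and lists were chosen with earlier results of these data known, and the role of Ndufb4c was set after seeing the files. Values per library are given for each role's 2 members of lowest p and those of highest and lowest mean TPM, and for both Ndufa4 paralogs. The values of 1 member are not reported here; it stays in the counts and medians. Of each related list at most 2 genes of lowest p are named, plus 7 mitochondrially encoded ones and genes named for their values afterwards. Replicate numbers follow the order of deposit. Python 3.11.15, pandas 2.3.3, scipy 1.17.1 and matplotlib 3.10.9 were used.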

Additional observations from a re-analysis of the deposited data

How the results depend on the processing

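The members' direction held in most settings: under other scalings (RLE, upper quartile, library totals), filters, DESeq2 and limma-voom, 45 of 46 members were below 0. DESeq2 called 184 genes, log2(TPM + 1) called 1 and log2(TPM + 0.1) called 2, and leaving out CONT replicate 3 with ET replicate 1 called 828, with 6 members; the cause was not tested. The median over members was -0.21 on log2(TPM + 1) and -0.21 on log2(TPM + 0.1), where all genes moved to 0.15 and 0.18, -0.18 with length offsets, which remove part of it by construction, and -0.025 with 29 members below 0 relative to complexes II to V. Leaving out single libraries gave medians of -0.48 to -0.29 (without CONT replicate 3 and 2), 43 to 46 members below 0, and 0 calls. Members lower at an unadjusted p under 0.05 ranged from 1 (without CONT replicate 2) to 31 (upper-quartile factors). Of 500 values for 25 named members over 20 alternatives, 486 kept sign and side of the threshold, 5 newly passed it and 9 changed sign: Ndufv1 went to 0.0273 on both TPM scales and ranged from -0.37 to 0.11 over left-out libraries, being 0.09 when ET replicate 1 was dropped; Ndufs1 went to -0.21 with a set term and -0.15 with length offsets and a set term, and ranged from -0.16 (ET replicate 3 dropped) to 0.54, being -0.032 with CONT replicate 1 dropped; Ndufb4c went to 0.00105 with length offsets. No paired analysis was possible because the labels give no replicate numbers shared across groups.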
